A study of Mus musculus with 10 samples.

Results

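Endothelial and blood-brain barrier markers were followed through medulloblastoma (MB) models and the developing cerebellum of mice: Cldn5, Pecam1, Cdh5, Flt1, Kdr, Tek, Vwf, Slco1a4, Ly6c1 and Abcb1a. These 10 genes were taken by their symbols from the 50559 genes counted, and the rule itself uses no measured value, although the list was drawn up with earlier results of these data known. All 10 members were counted in all 10 libraries, with between 10 and 667 reads per gene and library, and all 10 passed the filter on low counts. The same genes were compared between 4 MYC/SMARCA4 tumors, 3 SHH MB and 3 cerebella at postnatal day 7 (P7).

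Endothelial cells line every blood vessel, and in the brain they form a barrier. Tight junctions seal the clefts between the cells, efflux pumps return lipophilic drugs to the blood, and selective carriers admit nutrients. Vessel growth is driven by VEGF ligands that act on the receptors encoded by Kdr and Flt1, while angiopoietins act on the receptor encoded by Tek and steady the vessel wall. In brain tumors the barrier is often uneven, and in medulloblastoma its tightness differs between subgroups, with consequences for the entry of drugs.

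MYC/SMARCA4 tumors arose from granule cell precursors (GCPs) taken from pups with the genotype Math1-creERT2::Smarca4fl/fl after tamoxifen at P3. A lentivirus brought MYC and GFP into these cells, which were transplanted without prior sorting into the cerebella of immunodeficient CD1nu/nu mice, so that not every transplanted cell need have carried the Smarca4 deletion or the construct. Blood vessels of such grafts grow in from the recipient mouse. Tumors 1 to 4 are labelled with ages of 112, 96, 89 and 79 days. SHH MB were tumors of Math1-cre::Smofl/wt mice, in which Math1-driven Cre activates a mutant Smo allele in GCPs, and the labels give an age of 7 days. P7 cerebella were whole cerebella of Math1-creERT2::Smarca4fl/fl mice aged 7 days that had received 0.4 mg tamoxifen at P3. Math1 marks the granule cell lineage, so that Cre acts in neuronal precursors rather than in vessels in all of these mice. All RNA came from formalin-fixed tissue, taken from MYC/SMARCA4 tumors as punches, which hold all cells of their area. Age, recipient strain and tumor type change together between MYC/SMARCA4 tumors and the other groups and cannot be told apart. In such bulk RNA, fewer endothelial cells and less RNA per cell cannot be told apart either.

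Between 5663491 and 9352109 reads were counted on genes per library. Levels are given as CPM, the usual read count per megaread of the library, with library totals scaled by TMM factors that ranged from 0.62 to 1.28. A count of 3 in a library corresponds to between 0.307 and 0.744 CPM, and every level of a member was above it. Counts of replicate pairs differed far beyond sampling noise, with a chi-square per degree of freedom between 26.6 and 99.1 among tumors and between 3.76 and 6.22 within the other groups, so that no library was counted as a copy of another. Replicates carry separate numbers in the labels, and where nothing names separate mice the p-values cover only the spread between these samples. Myc measured 152, 368, 1587 and 1016 CPM in tumors 1 to 4, between 12.98 and 14.3 CPM in P7 cerebella and between 33.7 and 45.7 CPM in SHH MB. Smarca4 ranged from 136 to 244 CPM in MYC/SMARCA4 tumors, from 221 to 282 CPM in P7 cerebella and from 491 to 590 CPM in SHH MB. Smarca4 counts cover the whole gene, including exons outside the deleted part, and reads from cells of the recipient.

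The start regions of Kdr and Slco1a4 are shown because the results turn on them: Kdr is the only member that passed the test in any comparison, and Slco1a4 had the largest fitted change against SHH MB. Each run holds the 250 bases before the start of the canonical transcript, read 5′ to 3′ along the gene's strand from GRCm39 with GENCODE annotation, and none of these bases lies in an annotated exon. Capitals mark matches to CCGGAA, a motif of the ETS family to which the endothelial factors ERG, FLI1 and ETS1 belong, or to AGATAA, a motif of the GATA family, on either strand. A match is a description of the letters and was not tested as a binding site.
Kdr (chr5:76139119-76139368, minus strand): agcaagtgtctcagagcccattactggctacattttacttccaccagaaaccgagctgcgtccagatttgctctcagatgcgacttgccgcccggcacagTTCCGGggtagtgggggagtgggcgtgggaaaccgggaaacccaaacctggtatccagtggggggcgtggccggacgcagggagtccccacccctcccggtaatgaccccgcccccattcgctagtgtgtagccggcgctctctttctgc
Slco1a4 (chr6:141802037-141802286, minus strand): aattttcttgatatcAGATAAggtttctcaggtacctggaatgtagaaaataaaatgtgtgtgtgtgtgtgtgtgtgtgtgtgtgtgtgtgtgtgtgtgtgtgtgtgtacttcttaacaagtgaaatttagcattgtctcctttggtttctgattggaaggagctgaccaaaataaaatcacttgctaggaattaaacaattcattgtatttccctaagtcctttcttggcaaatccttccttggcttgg
CCGGAA, shown in Kdr, was found in 12.4% of 21751 promoters of the same length. CAGGAA, the other ETS motif searched, was found in Cdh5, Tek and Vwf and in 24.5% of all promoters. AGATAA, shown in Slco1a4, was found in 9.60% of all promoters. CTTTGA, a motif of the TCF/LEF factors of WNT signaling, was found in Abcb1a and in 14.1% of all promoters. The members also differed in CG dinucleotides in this window, with 23 in Flt1, 16 in Kdr, 12 in Cldn5, 5 in Tek and 0 in Slco1a4.

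Ly6c1 needs a further sequence, because its reads can also come from a neighboring gene. Its coding sequence is 97.7% identical to that of Ly6c2, a gene of monocytes, with 9 differing bases of 393. The middle coding exon shown here (chr15:74919202-74919318, minus strand) is identical in Ly6c2 (chr15:74982360-74982476, minus strand) over all 117 bases, which is longer than the 75-base reads.
Ly6c1 and Ly6c2: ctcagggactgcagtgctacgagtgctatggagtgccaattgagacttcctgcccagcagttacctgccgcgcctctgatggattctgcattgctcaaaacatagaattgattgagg
Of all 75-base windows of the canonical transcripts, 22.2% of Ly6c1 were also found in Ly6c2 or Ly6a, 11.2% of Abcb1a in Abcb1b or Abcb4, and 1.70% of Slco1a4 in other Slco1a genes. No window of the other 7 members was shared. Levels of Ly6c1 and Abcb1a are therefore uncertain to the extent that reads from these copies were assigned to them. Cdh5, Flt1, Kdr, Vwf and Abcb1a each overlap annotated genes on the opposite strand, and since strand use of the counting is not stated, reads from such partners cannot be told apart from theirs. Abcb1a also overlaps Gm42684 on its own strand, where strand use would not separate the reads.

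Endothelial RNA was measured in every library, and its summed level was close in P7 cerebella and SHH MB but spread widely among MYC/SMARCA4 tumors. The summed level of the 10 genes was 604, 262, 135 and 199 CPM in tumors 1 to 4. It was between 238 and 260 CPM in P7 cerebella and between 226 and 273 CPM in SHH MB. Tumor 1 thus stood above all other libraries and tumors 3 and 4 stood below them, whereas tumor 2 lay within the range of SHH MB. Tests were made with edgeR's quasi-likelihood method over 29952 genes, and a gene passed at an adjusted p of at most 0.05. Against P7 cerebella, 0 of 10 genes passed, beside 3.99% of all genes tested that passed as higher and 2.27% as lower in MYC/SMARCA4 tumors. Against SHH MB, 0 genes passed as higher and 1 as lower, beside 2.43% and 2.26% of all genes tested. Between SHH MB and P7 cerebella 0 of 10 genes passed, beside 0.177% of all genes higher and 0.0467% lower in SHH MB. All 3 groups shared 1 estimate of the spread in this fit, although replicate tumors differed far more than replicates of the other groups. The p-values can thus be too small for the tumor comparisons and too large between SHH MB and P7 cerebella. Fits of the 2 compared groups alone called 229, 388 and 6883 genes in the 3 comparisons, with 0, 0 and 1 members. At an unadjusted edgeR p of at most 0.05 in the main fit, 4, 6 and 0 members passed in these 3 comparisons. Beside them stood 7558, 5939 and 2635 of the 29952 genes tested. With DESeq2, 2 members passed against P7 cerebella, 3 against SHH MB and 0 between SHH MB and P7 cerebella. Beside them stood 4414, 3062 and 457 of the 50559 genes counted. Among genes with at least 10 counts in every library, 2 members passed against P7 cerebella and 2 against SHH MB. Beside them stood 1853 and 1713 of 15814 genes. The comparisons share libraries and are not independent. Over all genes tested, 1194 passed as higher and 679 as lower than in P7 cerebella, 727 and 676 against SHH MB, and 53 and 14 between SHH MB and P7 cerebella. Without TMM factors these splits were 307 and 1172, 431 and 908, and 47 and 49, with a median shift of all genes of -0.34, -0.23 and -0.11 on the log2 scale. Fits without tumor 3 called 34.6% of all genes against P7 cerebella and 23.4% against SHH MB, and fits without tumor 1 called 16.1% and 9.77%. Calls of members in these fits stand beside those shares.

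**Figure D1:**
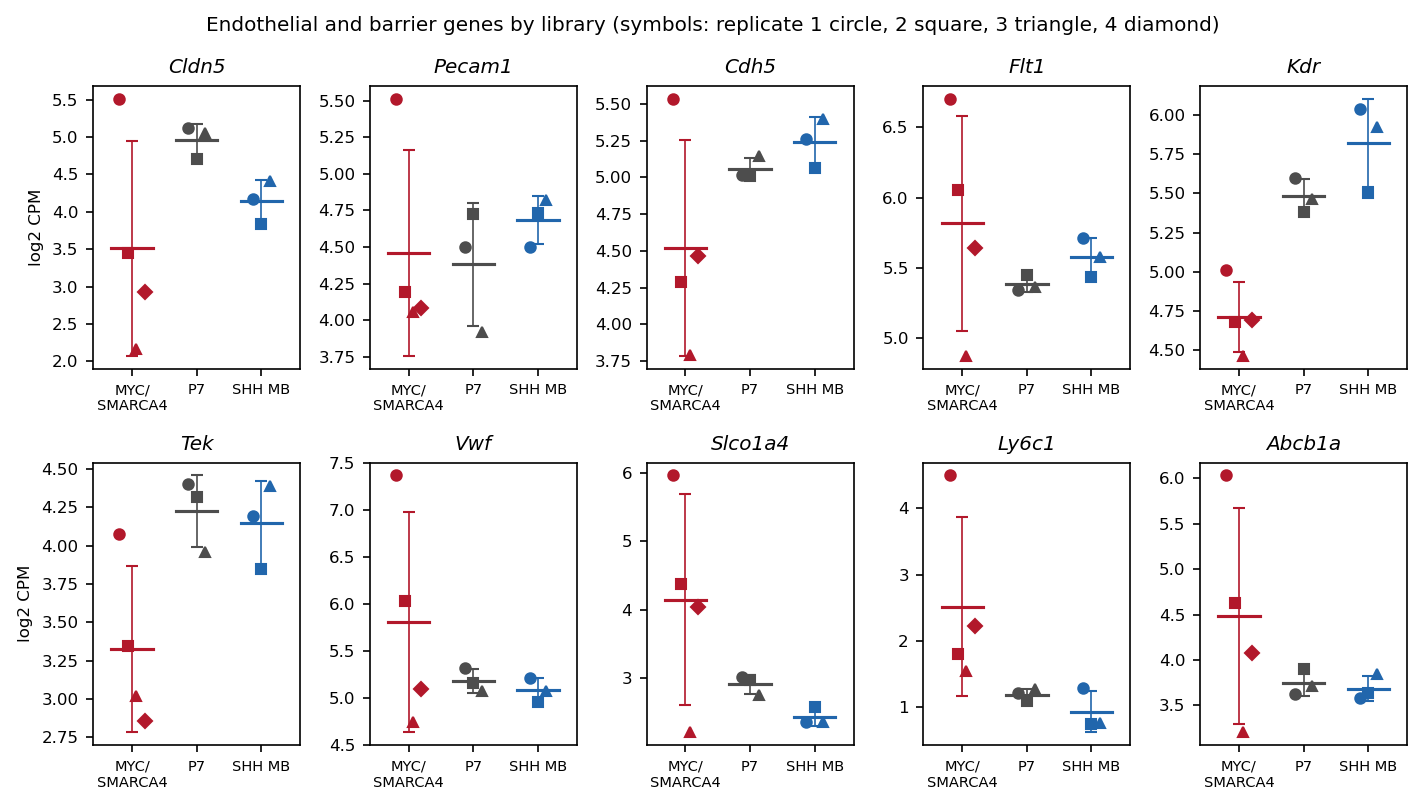
Levels of the 10 genes as log2 CPM (vertical axes, a scale of its own for each gene) in MYC/SMARCA4 tumors, P7 cerebella and SHH MB. Symbols are libraries by replicate number, lines are group means and bars are the SD. Tumor 1 (circle) is the highest tumor for all 10 genes and tumor 3 (triangle) the lowest for 9 of them.

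The receptors of VEGF behaved differently. Kdr (chr5:76093487-76139884, minus strand) encodes VEGFR2, the main signaling receptor for VEGF-A. Its level was 31.98, 25.4, 21.8 and 25.6 CPM in tumors 1 to 4, 48.2, 41.5 and 43.8 CPM in P7 cerebella, and 65.3, 45.1 and 60.5 CPM in SHH MB. All tumors lay below all libraries of both other groups. Kdr was lower in MYC/SMARCA4 tumors compared to SHH MB by a log2 fold change of -1.12 ± 0.24 (SE, 95% interval -1.64 to -0.61), which passed the test (edgeR adjusted p = 0.0197). The exact permutation test over libraries, two-sided, gave p = 0.0286, the smallest that 35 splits of 4 and 3 libraries allow. Over 21 alternatives the change ranged from -1.41 to -1.03 and passed in 13. It was lost without tumor 2 (adjusted p = 0.0520), without P7 cerebellum 2 (0.0514), without SHH MB 1 (0.147), 2 (0.0607) or 3 (0.140), with limma on VST values (0.0754), in a fit of both groups alone (0.0655) and with the replicate block (0.0820). Against P7 cerebella the change was -0.77 ± 0.24 (95% interval -1.28 to -0.25), which did not pass (adjusted p = 0.0743). It passed there without tumor 1 (-0.86, adjusted p = 0.0140), without tumor 3 (-0.86, 0.0125), without TMM factors (-1.17, 0.00908) and among genes with at least 10 counts in every library (-1.04, 0.00657).

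Flt1 (chr5:147498414-147662826, minus strand) encodes VEGFR1, which binds VEGF-A tightly and whose soluble form withholds it from VEGFR2. Its level was 104, 66.1, 29.1 and 49.6 CPM in tumors 1 to 4, 40.4, 43.3 and 41.0 CPM in P7 cerebella, and 52.1, 43.0 and 47.6 CPM in SHH MB. The tumors surrounded the other groups, with tumor 1 the highest and tumor 3 the lowest of all libraries. The log2 fold change was 0.58 ± 0.35 (SE) against P7 cerebella and 0.38 ± 0.35 against SHH MB, and neither passed (adjusted p = 0.308 and 0.586). The sign against SHH MB turned without TMM factors (-0.03). Within each library, the ratio of Flt1 to Kdr does not depend on the scaling of that library. This ratio was 3.25, 2.603, 1.33 and 1.94 in tumors 1 to 4, 0.837, 1.05 and 0.935 in P7 cerebella, and 0.798, 0.953 and 0.786 in SHH MB, so that every tumor lay above every other library. Averaged on the log2 CPM scale, the ratio in MYC/SMARCA4 tumors was 2.30-fold that in P7 cerebella and 2.55-fold that in SHH MB (exact permutation test, two-sided, p = 0.0571 for both). This pair was singled out after its values were seen.

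Tek (chr4:94627291-94763224, plus strand) encodes TIE2, the receptor of angiopoietins that keeps vessels quiescent. Its level was 16.6, 9.90, 7.84 and 6.95 CPM in tumors 1 to 4, 20.8, 19.7 and 15.3 CPM in P7 cerebella, and 18.1, 14.1 and 20.7 CPM in SHH MB. Tumors 2 to 4 lay below all other libraries, whereas tumor 1 overlapped with both groups. The change was -0.86 ± 0.33 (SE) against P7 cerebella and -0.79 ± 0.33 against SHH MB, and neither passed (adjusted p = 0.127 and 0.206). Both passed without tumor 1, at -1.17 (adjusted p = 0.00736) and -1.12 (0.0137), both passed without TMM factors (-1.31 and -1.12, 0.0164 and 0.0358), and both passed among genes with at least 10 counts in every library (-1.15 and -0.996, 0.0268 and 0.0476). Without tumor 3 only the change against P7 cerebella passed (-0.95, adjusted p = 0.0340). Angpt1, the activating ligand of TIE2 made mainly by pericytes and other perivascular cells, was also low, and passed against both groups. It ranged from 2.80 to 12.6 CPM in MYC/SMARCA4 tumors, from 26.3 to 28.4 CPM in P7 cerebella and from 29.1 to 32.8 CPM in SHH MB. The change of Angpt1 was -1.75 ± 0.38 (edgeR adjusted p = 0.0209) and -1.94 ± 0.38 (0.0133). Leaving out tumor 2 or a P7 cerebellum ended the first call, and leaving out an SHH MB ended the second, with adjusted p up to 0.115 and 0.0723.

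The next members belong to the contacts between endothelial cells. Pecam1 (chr11:106543689-106641454, minus strand) encodes the adhesion molecule CD31, the usual stain for vessels. Its level was 45.4, 18.0, 16.4 and 16.7 CPM in tumors 1 to 4, 22.4, 26.2 and 14.8 CPM in P7 cerebella, and 22.4, 26.3 and 28.0 CPM in SHH MB. Tumors 2 to 4 were close together and tumor 1 was far above them. The log2 fold change was 0.18 ± 0.38 (SE, 95% interval -0.64 to 0.99) against P7 cerebella and -0.09 ± 0.38 (-0.91 to 0.72) against SHH MB, with adjusted p of 0.770 and 0.915. The first turned to -0.31 without tumor 1, to -0.15 without P7 cerebellum 3, to -0.30 without TMM factors and to -0.13 among genes with at least 10 counts in every library.

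Cdh5 (chr8:104828231-104871143, plus strand) encodes VE-cadherin, the cadherin of endothelial adherens junctions. Its level was 46.1, 19.3, 13.6 and 21.8 CPM in tumors 1 to 4, 32.1, 31.99 and 35.1 CPM in P7 cerebella, and 38.1, 33.1 and 41.9 CPM in SHH MB. Tumors 2 to 4 lay below every library of both other groups and tumor 1 above them. The change was -0.40 ± 0.35 against P7 cerebella and -0.59 ± 0.35 against SHH MB (adjusted p = 0.469 and 0.383). Without tumor 1 it was -0.85 (adjusted p = 0.0215) and -1.06 (0.00946), and both passed. The change against SHH MB also passed without TMM factors (-0.99, adjusted p = 0.0390).

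Cldn5 (chr16:18595597-18597012, plus strand) encodes claudin-5, the main tight junction protein of the blood-brain barrier. Its level was 45.4, 10.6, 4.20 and 7.32 CPM in tumors 1 to 4, 34.4, 25.8 and 33.0 CPM in P7 cerebella, and 17.7, 14.0 and 21.0 CPM in SHH MB. Tumors 2 to 4 were the 3 lowest libraries and tumor 1 was the highest of all. The change was -0.91 ± 0.60 against P7 cerebella and -0.09 ± 0.61 against SHH MB, and neither passed (adjusted p = 0.346 and 0.955). Without tumor 1 these became -2.07 (adjusted p = 0.00103) and -1.27 (0.0220), and both passed. Without tumor 2, tumor 3 or SHH MB 3 the sign against SHH MB turned, with values between 0.01 and 0.08.

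Vwf (chr6:125523737-125663642, plus strand) encodes von Willebrand factor, which endothelial cells store and release at injury. Its level was 165, 65.0, 26.5 and 34.0 CPM in tumors 1 to 4, 39.7, 35.4 and 33.4 CPM in P7 cerebella, and 36.9, 30.8 and 33.4 CPM in SHH MB. Only tumors 1 and 2 exceeded both other groups. The change was 1.00 ± 0.51 (SE) against P7 cerebella and 1.11 ± 0.51 against SHH MB (adjusted p = 0.234 and 0.252). It was 0.22 and 0.30 without tumor 1.

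**Figure D2:**
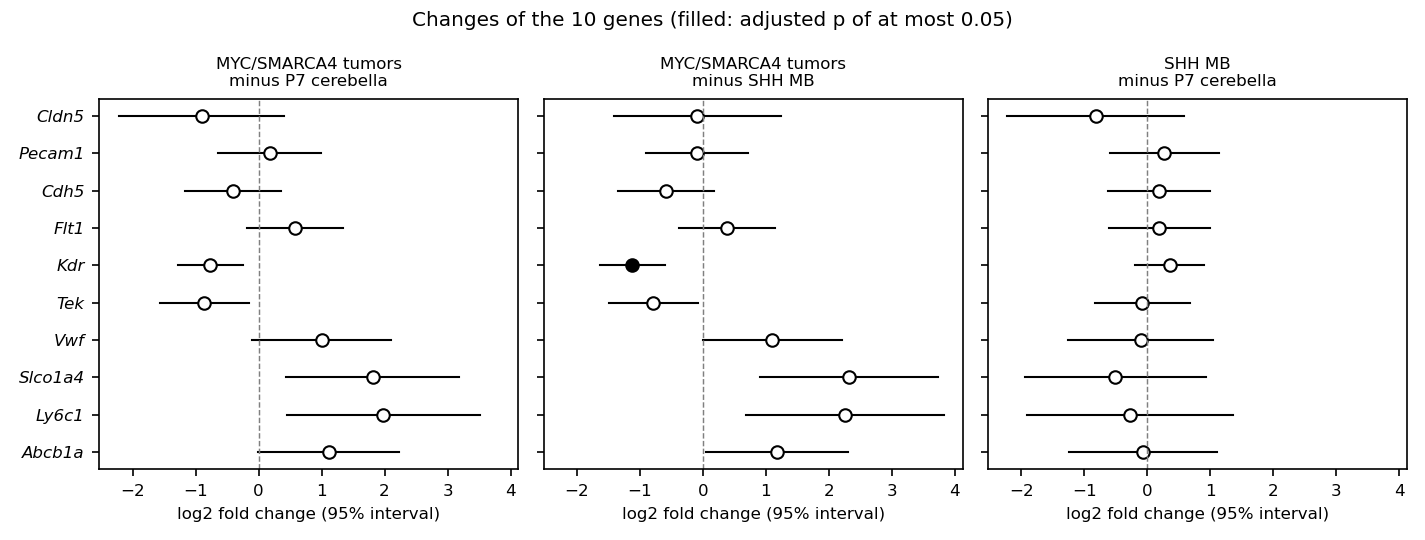
Log2 fold changes of the 10 genes (horizontal axes) in the 3 comparisons, with points for the fitted change and lines for the 95% interval. The only filled point, past the test, is Kdr in MYC/SMARCA4 tumors against SHH MB at -1.12, and the widest intervals are those of Slco1a4, Ly6c1 and Cldn5.

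The members that belong to transport across the barrier, together with Ly6c1, had the largest fitted increases. Slco1a4 (chr6:141751165-141802036, minus strand) encodes OATP1A4, an organic anion carrier of brain endothelium. Its level was 62.2, 20.5, 4.34 and 16.1 CPM in tumors 1 to 4, 7.76, 7.53 and 6.42 CPM in P7 cerebella, and 4.82, 5.66 and 4.83 CPM in SHH MB. Tumors 1, 2 and 4 lay above every library of both groups and tumor 3 below every one. The change was 1.82 ± 0.63 (SE, 95% interval 0.44 to 3.19) against P7 cerebella and 2.32 ± 0.66 (0.90 to 3.74) against SHH MB, and neither passed with edgeR (adjusted p = 0.102 and 0.0645). Both passed without tumor 3 (1.94, adjusted p = 0.00749, and 2.46, 0.00325) and with DESeq2 (1.90, 0.0277, and 2.36, 0.00435). The second also passed with no filter on low counts (2.32, adjusted p = 0.0335). Without tumor 1 the changes were 0.92 and 1.40 (adjusted p = 0.178 and 0.0704).

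Abcb1a (chr5:8710022-8798575, plus strand) encodes P-glycoprotein, the efflux pump of brain endothelium. Its level was 65.2, 24.5, 8.95 and 16.6 CPM in tumors 1 to 4, 12.1, 14.6 and 12.8 CPM in P7 cerebella, and 11.7, 12.1 and 14.1 CPM in SHH MB. Tumors 1, 2 and 4 lay above and tumor 3 below all other libraries, as for Slco1a4. The change was 1.12 ± 0.52 (SE) against P7 cerebella and 1.18 ± 0.52 against SHH MB (adjusted p = 0.199 and 0.231). Without tumor 3 it was 1.19 (adjusted p = 0.0335) and 1.27 (0.0358), and both passed, whereas without tumor 1 it was 0.35 and 0.39.

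Abcb1b, the second mouse gene for P-glycoprotein, which is found more in other cell types than in brain endothelium, had the reverse order among the tumors. Its level was 3.97, 17.3, 29.4 and 28.9 CPM in tumors 1 to 4, between 3.82 and 5.01 CPM in P7 cerebella and between 4.05 and 6.68 CPM in SHH MB. Tumors 2 to 4 lay above all P7 cerebella and SHH MB, whereas tumor 1 lay within the range of P7 cerebella. Abcb1b passed as higher than in P7 cerebella by a log2 fold change of 2.18 ± 0.54 (edgeR adjusted p = 0.0354). This call was kept in 2 of 10 fits with 1 library left out, those without tumor 1 or tumor 3, with adjusted p up to 0.195 in the others.

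**Figure D3:**
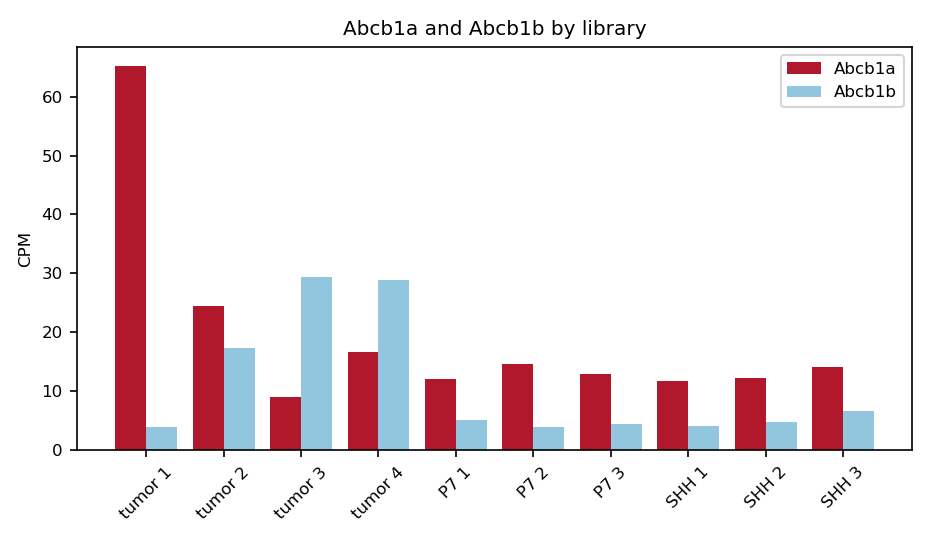
Levels of Abcb1a and Abcb1b in each library (bars, CPM, linear axis from 0). Abcb1a fell from 65.2 CPM in tumor 1 to 8.95 CPM in tumor 3, while Abcb1b was 3.97 CPM in tumor 1 and 29.4 CPM in tumor 3.

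Ly6c1 (chr15:74915847-74920686, minus strand) encodes a small membrane-anchored protein of brain endothelium and of some lymphocytes. Its level was 22.3, 3.24, 2.66 and 4.39 CPM in tumors 1 to 4, from 90, 18, 19 and 36 reads. It was 2.04, 1.86 and 2.14 CPM in P7 cerebella and 2.18, 1.41 and 1.42 CPM in SHH MB, from 10 to 20 reads each. All tumors lay above all other libraries. The change was 1.98 ± 0.71 (SE) against P7 cerebella and 2.25 ± 0.73 against SHH MB, and neither passed (adjusted p = 0.109 and 0.101). Both passed without tumor 3 (2.01, adjusted p = 0.0264, and 2.30, 0.0238) and with DESeq2 (2.06, 0.0288, and 2.29, 0.0149), and without tumor 1 they were 0.78 and 1.03 (0.273 and 0.216). Ly6c2, with the shared exon shown above, was counted with 0 to 9 reads per tumor and 1 to 13 reads per library of the other groups, so that it stayed at or below 2.02 CPM. Ly6a, the other gene with shared windows, had 20 to 33 reads per tumor, between 2.81 and 5.94 CPM, and 2 to 16 reads in the other libraries.

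Kdr and Ly6c1 were the only members whose groups did not overlap between MYC/SMARCA4 tumors and P7 cerebella, 1 lower and 1 higher, where 10.7% of all genes tested were lower and 10.3% higher without overlap. They were also the only such members against SHH MB, where the shares of all genes were 8.30% lower and 7.83% higher. Between SHH MB and P7 cerebella, Cldn5 and Slco1a4 were lower in every SHH MB and no member was higher in every SHH MB, beside 19.0% and 17.8% of all genes tested. Shares of 1 or 2 in 10 members are close to these shares of all genes. Cldn5 differed there by -0.82 ± 0.65 (edgeR adjusted p = 0.795). It passed only in a fit of both groups alone (-0.80, adjusted p = 0.00107), which called 6883 of 29018 genes tested. Slco1a4, the other such member, changed by -0.50 ± 0.66 in the main fit (edgeR adjusted p = 0.896). With 3 libraries in each group the exact permutation test cannot go below 0.1.

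The tumors themselves shared their extremes in most members, whereas the order of tumors 2 and 4 changed between members. Tumor 1 had the highest level of the 4 tumors in 10 of 10 members and in 15 of 20 other pan-endothelial genes, beside 32.6% of all genes tested. Tumor 3 had the lowest in 9 of 10 members and in 13 of 20 of those genes, beside 30.9% of all genes. The ratio of the highest to the lowest tumor was 14.3 for Slco1a4, 10.8 for Cldn5, 8.39 for Ly6c1, 7.28 for Abcb1a and 6.25 for Vwf. It was 3.57 for Flt1, 3.40 for Cdh5, 2.77 for Pecam1, 2.39 for Tek and 1.46 for Kdr. The corresponding ratios lay between 1.07 and 1.77 in P7 cerebella and between 1.17 and 1.54 in SHH MB. Kdr thus spread the least of the members and Slco1a4 the most.

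Some other signals moved with the order of the summed endothelial level and some did not. The summed level of 10 mature granule neuron genes was 11289, 4458, 663 and 2739 CPM in tumors 1 to 4, and that of 10 genes of mature oligodendrocytes was 4206, 856, 124 and 472 CPM. Both lists had tumor 1 as the highest tumor in 10 of 10 genes, and tumor 3 as the lowest in 10 and 8 of them. In P7 cerebella they summed to between 1874 and 2237 CPM and between 972 and 1155 CPM, and in SHH MB to between 1054 and 1172 CPM and between 133 and 405 CPM. No gene of either list was at 0 in any library. Myc had the reverse order, with 152 CPM in tumor 1 and 1587 CPM in tumor 3, and tumor 1 was the oldest by its label. Astrocyte genes had another order, with 529, 2865, 612 and 2146 CPM in tumors 1 to 4 and tumor 2 as the highest in 10 of 10. Fibroblast and meningeal genes also had another order, with 406, 2640, 1009 and 652 CPM. Tumor 3 was nevertheless the lowest tumor in 8 of 10 astrocyte genes and in 7 of 10 fibroblast and meningeal genes. Microglia and macrophage genes summed to 237, 139, 69.1 and 180 CPM. Of these 11 genes, tumor 1 was the highest tumor in 6 and tumor 3 the lowest in 10. Pericyte and smooth muscle genes summed to 480, 460, 243 and 283 CPM in tumors 1 to 4, a narrower range than that of the endothelial members. The part of neighboring cerebellar tissue, of the host's age or of the level of Myc in the order of the endothelial genes was not tested.

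**Figure D4:**
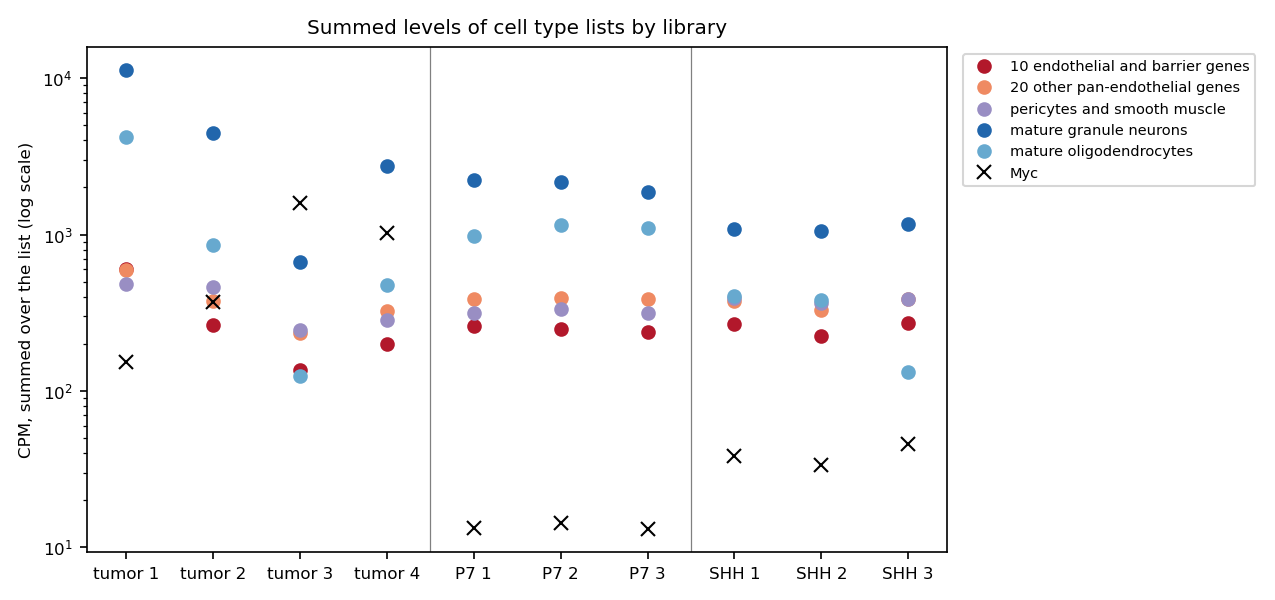
Summed CPM of the 10 endothelial and barrier genes and of 4 other lists, and CPM of Myc (vertical log axis), in each of the 10 libraries. Tumor 1 has the highest endothelial, neuronal and oligodendrocyte sums and the lowest Myc of the tumors, and tumor 3 shows the opposite.

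To set the amount of endothelial RNA aside, members were read against each other within a library. Among the 45 pairs of members, the log2 difference of 23 pairs (51.1%) did not overlap between MYC/SMARCA4 tumors and P7 cerebella, beside 20.1% of all pairs of genes tested. Against SHH MB it was 27 pairs (60.0%), beside 16.1% of all pairs. Between SHH MB and P7 cerebella it was 21 pairs (46.7%), beside 33.0%. Pairs that share a gene are not independent, and these shares carry no test.

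Transporters were high relative to Cldn5 in every MYC/SMARCA4 tumor. The ratio of Slco1a4 to Cldn5 was 1.37, 1.93, 1.03 and 2.20 in tumors 1 to 4, between 0.195 and 0.292 in P7 cerebella, and between 0.230 and 0.403 in SHH MB. The ratio of Abcb1a to Cldn5 was 1.44, 2.31, 2.13 and 2.27 in the tumors, between 0.350 and 0.568 in P7 cerebella, and between 0.658 and 0.866 in SHH MB. Tumor 1, in spite of its high levels of all 3 genes, did not overlap with the other groups. On the log2 CPM scale the first ratio was 6.44-fold that in P7 cerebella and 5.11-fold that in SHH MB, and the second 4.56-fold and 2.697-fold (exact permutation test, two-sided, p = 0.0286 for each, the smallest possible). The ratio of Vwf to Kdr was 5.17, 2.56, 1.21 and 1.33 in the tumors, between 0.762 and 0.853 in P7 cerebella and between 0.552 and 0.682 in SHH MB. The choice of these pairs was made with their values known.

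**Figure D5:**
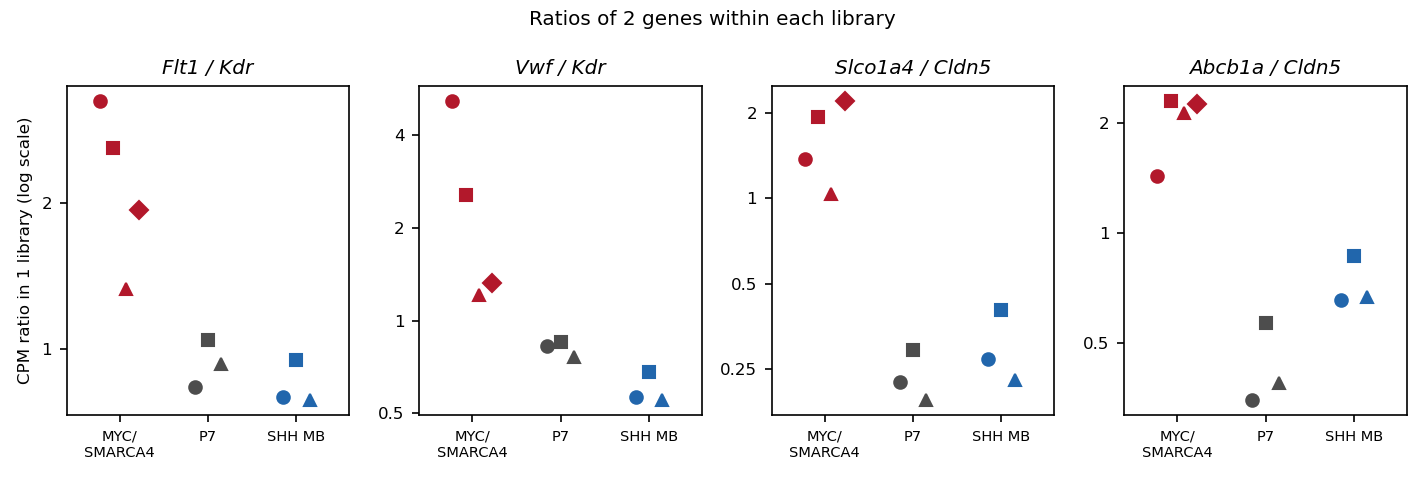
Ratios of CPM of 2 genes in the same library (vertical log axes) for 4 pairs, by group, with symbols for replicate numbers as in the plot of levels by library. In each pair the 4 MYC/SMARCA4 tumors lie above all P7 cerebella and all SHH MB, with the lowest tumor at 1.33 for Flt1 to Kdr against 1.05 in the highest other library.

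Set against the mean of Pecam1 and Cdh5 in the same library, Flt1, Vwf, Slco1a4, Ly6c1 and Abcb1a were higher in every MYC/SMARCA4 tumor than in every library of both other groups. The mean difference in log2 CPM from P7 cerebella was 0.66 for Flt1, 0.85 for Vwf, 1.47 for Slco1a4, 1.56 for Ly6c1 and 0.97 for Abcb1a. The corresponding differences from SHH MB were 0.71, 1.20, 2.19, 2.06 and 1.27. Kdr was lower in every tumor than in every SHH MB (by a mean of -0.64) but overlapped with P7 cerebella, and Tek was lower in every tumor than in every P7 cerebellum (by -0.67) but overlapped with SHH MB. Cldn5 overlapped with both groups on this scale. The share of all genes without overlap on this scale was not computed, so that these separations are descriptions only. For Slco1a4, tumor 3 (-1.72) lay only just above P7 cerebellum 1 (-1.75). The reference gene Cdh5 itself had fitted changes of -0.40 and -0.59 in MYC/SMARCA4 tumors against P7 cerebella and SHH MB, neither of which passed. In an alternative added after the values were seen, library sizes were set by the 20 other pan-endothelial genes, so that members were compared relative to their summed counts. Whether reads of these genes came only from endothelium was not tested. Kdr (-1.08 ± 0.24, edgeR adjusted p = 0.0262) and Slco1a4 (2.01 ± 0.49, 0.0368) then passed against SHH MB, and 0 members passed against P7 cerebella or between SHH MB and P7 cerebella.

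Compared per length, Cldn5 had the highest mean level of the members in every group, with 21.9 ± 3.28 CPM per kilobase (SD, n = 3) in P7 cerebella, 12.4 ± 2.47 (SD, n = 3) in SHH MB and 11.9 ± 13.5 (SD, n = 4) in MYC/SMARCA4 tumors. These values use the canonical transcript of Cldn5 with 1416 bases. In MYC/SMARCA4 tumors this place was set by tumor 1, where Cldn5 reached 32.03 CPM per kilobase, against 7.50, 2.96 and 5.17 in tumors 2 to 4. Without tumor 1 the mean of Cldn5 was 5.21 ± 2.27 (SD, n = 3), below that of Flt1 with 7.00 ± 2.69, and Flt1 was the higher in each of tumors 2 to 4 (9.58, 4.22 and 7.20). In tumor 3, Pecam1 was the highest member (4.45). In P7 cerebella, Cdh5 (8.22 ± 0.44) and Kdr (7.51 ± 0.58) followed, then Flt1 (6.03 ± 0.23), Pecam1 (5.75 ± 1.57), Vwf (4.09 ± 0.37), Tek (3.76 ± 0.59), Abcb1a (2.61 ± 0.26), Ly6c1 (1.85 ± 0.13) and Slco1a4 (1.83 ± 0.18). Neighbors in this order differed by less than the larger of their SDs for Flt1 and Pecam1, for Vwf and Tek, and for Ly6c1 and Slco1a4. SHH MB had the same 3 genes at the top and the same 5 genes at the bottom, with Kdr at 9.62 ± 1.78 CPM per kilobase. In MYC/SMARCA4 tumors the SDs of most members were as large as the distances between them. Kdr (4.42 ± 0.71) and Tek (2.09 ± 0.88) had the lowest means over all 4 tumors. The place of Kdr, like that of Cldn5, was set by tumor 1. Without tumor 1 the mean of Kdr was 4.097, above those of Slco1a4 (3.445), Abcb1a (3.301) and Ly6c1 (3.152). Tek (1.664) stayed the lowest. With the length of all annotated exons together, Pecam1 (10002 bases) and Ly6c1 (3305 bases) took lower places, and Cldn5 and Cdh5 had the highest means in every group.

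Of 20 other pan-endothelial genes, such as the mucin-like gene Emcn and the stem cell antigen gene Cd34, 0 passed in any of the 3 comparisons. Their median log2 fold change was -0.01 against P7 cerebella and -0.09 against SHH MB, beside -0.05 and 0.01 over all genes tested. The medians of the 10 members were 0.38 and 0.15. The summed level of these 20 genes was 594, 376, 234 and 323 CPM in tumors 1 to 4, between 386 and 392 CPM in P7 cerebella, and between 331 and 390 CPM in SHH MB.

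Among 15 endothelial transcription factors, 4 were lower in MYC/SMARCA4 tumors compared to SHH MB and 0 were higher, and 0 differed from P7 cerebella. Sox18, a factor of vessel and lymphatic development, ranged from 3.42 to 7.69 CPM in MYC/SMARCA4 tumors, from 6.004 to 10.2 CPM in P7 cerebella and from 44.5 to 61.5 CPM in SHH MB. It was lower in MYC/SMARCA4 tumors compared to SHH MB by a log2 fold change of -3.40 ± 0.34 (edgeR adjusted p = 0.000147), and passed in all alternatives. It was also higher in SHH MB than in P7 cerebella (2.78 ± 0.36, adjusted p = 0.0134), a call lost in each fit without a P7 cerebellum or an SHH MB (adjusted p up to 0.145). Ets1 (-1.18), Sox7 (-1.63) and Foxf2 (-1.84), factors of endothelium or, for Foxf2, of brain pericytes, passed as lower than in SHH MB (adjusted p = 0.0187, 0.0223 and 0.0320). Each of these 3 calls was lost without any single SHH MB, that of Ets1 also without P7 cerebellum 2 and that of Foxf2 also without tumor 2 or P7 cerebellum 1 or 2, with adjusted p up to 0.164. Bulk RNA does not name the cell these transcripts came from.

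Among 13 ligands of vessel growth, 2 were lower than in P7 cerebella (Vegfc and Angpt1), 1 was lower than in SHH MB (Angpt1) and 0 were higher. Vegfc, a ligand of lymphatic and venous growth, ranged from 1.44 to 3.22 CPM in MYC/SMARCA4 tumors and from 7.46 to 10.8 CPM in P7 cerebella (-2.11 ± 0.38, edgeR adjusted p = 0.0113, and up to 0.0888 without P7 cerebellum 2 or 3). Of 12 other receptors and coreceptors, 2 were lower and 1 was higher in both comparisons. Aplnr, the apelin receptor of growing vessels, ranged from 2.98 to 7.00 CPM in MYC/SMARCA4 tumors, from 20.4 to 23.1 CPM in P7 cerebella and from 18.7 to 28.3 CPM in SHH MB. Its changes of -1.94 ± 0.31 (adjusted p = 0.00622) and -2.06 ± 0.31 (0.00286) passed in every alternative. Tspan12, a coreceptor of Norrin signaling in the barrier endothelium of retina and cerebellum, was lower by -1.14 ± 0.31 (adjusted p = 0.0466) and -1.66 ± 0.31 (0.0101). Nrp2, a neuropilin that binds VEGF-C and semaphorins, was higher by 2.05 ± 0.47 (adjusted p = 0.0256) and 2.31 ± 0.48 (0.0174). Nrp2 was lowest in tumor 1 among the tumors, at 39.7 CPM, within the range of P7 cerebella (from 35.4 to 44.2 CPM), and reached 245 CPM in the highest tumor. Against P7 cerebella, the calls of Tspan12 and Nrp2 were lost in fits without single libraries of any group, with adjusted p up to 0.215 and 0.166. Against SHH MB, the call of Tspan12 was lost only without SHH MB 2 or 3 among these fits (adjusted p up to 0.0824). That of Nrp2 was lost there when any 1 SHH MB was left out (up to 0.112).

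Of 23 barrier transporters and receptors, 3 were higher (Slc16a1, Slc6a6 and Tfrc) and 1 was lower (Slc39a8) in both comparisons. Slc16a1 encodes the monocarboxylate carrier MCT1, Slc6a6 the taurine carrier and Tfrc the transferrin receptor, and all 3 are also used by dividing or neural cells. Tfrc ranged from 159 to 274 CPM in MYC/SMARCA4 tumors, from 79.4 to 104 CPM in P7 cerebella and from 82.9 to 92.3 CPM in SHH MB, with changes of 1.43 ± 0.28 (edgeR adjusted p = 0.0141) and 1.46 ± 0.28 (0.0114). Slc6a6 was higher by 1.87 ± 0.26 than in SHH MB (adjusted p = 0.00175), which passed in every alternative, and by 1.05 ± 0.25 than in P7 cerebella (0.0305). Slc16a1 was higher by 1.08 ± 0.28 and 1.46 ± 0.29 (adjusted p = 0.0436 and 0.0143), and the zinc carrier gene Slc39a8 was lower by -0.95 ± 0.26 and -1.30 ± 0.26 (0.0492 and 0.0159). Apart from Slc6a6 against SHH MB, these calls were lost in fits without single libraries, in each case those of the group compared and against P7 cerebella for 3 of the genes also others, with adjusted p up to 0.235. Of 11 junction genes, 0 passed against P7 cerebella, and 1, the junctional adhesion molecule gene Jam2, was lower than in SHH MB (-1.35 ± 0.28, adjusted p = 0.0185, and up to 0.122 without an SHH MB).

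In the list of fenestrated, tip cell or activated endothelium, 12 of 13 genes were tested. Ccn2, a matricellular gene of the YAP pathway, was higher in both comparisons (2.79 ± 0.67 and 2.74 ± 0.67, edgeR adjusted p = 0.0320 and 0.0372), with 78.8 CPM in tumor 1 and 9.24 CPM in tumor 3. Its calls were lost without any single P7 cerebellum or SHH MB (adjusted p up to 0.182). Cxcr4, a chemokine receptor of tip cells and also of GCPs, ranged from 1.74 to 12.2 CPM in MYC/SMARCA4 tumors and from 103 to 135 CPM in SHH MB (-4.35 ± 0.47, adjusted p = 0.000300), and passed in every alternative that tested it. Cxcr4 was also higher in SHH MB than in P7 cerebella (2.98 ± 0.49, adjusted p = 0.0329), a call lost without any single P7 cerebellum or SHH MB (adjusted p up to 0.280). Of 12 arterial and venous genes, Nr2f2, a venous factor, was higher than in P7 cerebella (1.57 ± 0.42, adjusted p = 0.0466), and Hey1, an arterial Notch target, was lower than in SHH MB (-2.03 ± 0.43, 0.0194). Both were lost when single libraries were left out, with adjusted p up to 0.245 and 0.0978.

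The cells around the vessel were represented by further lists. Of 15 tested pericyte and smooth muscle genes, Cspg4, which encodes NG2 of pericytes and of oligodendrocyte precursors, was lower in both comparisons (-1.02 ± 0.27 and -1.25 ± 0.27, edgeR adjusted p = 0.0412 and 0.0202) and 0 were higher. Cspg4 lost these calls in 8 and 3 of 10 fits with 1 library left out. Of 10 astrocyte genes, 2 were lower than in P7 cerebella, including the endfoot water channel gene Aqp4 (from 13.3 to 221 CPM in MYC/SMARCA4 tumors and from 642 to 699 CPM in P7 cerebella, -3.01 ± 0.69, adjusted p = 0.0259) and Aldh1l1 (-2.22 ± 0.36, 0.00666). Against SHH MB, Aldh1l1 was lower (-1.81 ± 0.36, adjusted p = 0.0146) and Gjb6 higher (2.51 ± 0.56, 0.0245). Ogn, a fibroblast gene, was higher than in P7 cerebella (1.34 ± 0.37, adjusted p = 0.0487), the only one of 10 fibroblast and meningeal genes that passed. Of 11 microglia and macrophage genes, 0 passed in any comparison. The calls of Aqp4, Gjb6 and Ogn were lost without single libraries of any of the 3 groups (adjusted p up to 0.116, 0.139 and 0.266). Aldh1l1 lost its call against SHH MB when any 1 SHH MB was left out (adjusted p up to 0.0837), but passed against P7 cerebella in every alternative.

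The 16 genes of blood cells and platelets summed to 198, 221, 62.8 and 134 CPM in tumors 1 to 4, between 109 and 151 CPM in P7 cerebella and between 110 and 379 CPM in SHH MB, so that the groups overlapped. Of 13 tested, the alpha globin gene Hba-a2 was the only one that passed as lower, while its near-identical copy Hba-a1 (0.72, edgeR adjusted p = 0.494 against P7 cerebella) did not, and reads may be split between both. Hba-a2 had 4 to 8 reads per tumor, between 0.488 and 1.98 CPM. It ranged from 12.3 to 22.3 CPM in P7 cerebella and from 11.4 to 64.9 CPM in SHH MB (-4.02 ± 0.65 and -4.88 ± 0.65, edgeR adjusted p = 0.00635 and 0.00136). Lyz2, a gene of myeloid cells, was higher than in P7 cerebella (2.93 ± 0.62, adjusted p = 0.0200, and up to 0.121 without single P7 cerebella). Among markers of other tissue, the choroid plexus genes Ttr, Kcne2 and Aqp1 were lower in both comparisons, of which only Ttr passed whichever library was left out. Kcne2 lost its call in 6 and 4 of 10 such fits (adjusted p up to 0.140 and 0.170) and Aqp1 in 3 and 7 (up to 0.0992 and 0.171). Ttr ranged from 0.180 to 3.08 CPM in MYC/SMARCA4 tumors, from 517 to 1097 CPM in P7 cerebella and from 230 to 1192 CPM in SHH MB. Mature granule neuron genes were higher, 4 of 10 against P7 cerebella and 7 of 10 against SHH MB, among them Gabra6, Cbln3 and Grin2c, and so was the oligodendrocyte gene Mal (4.31 ± 0.89, adjusted p = 0.0178) against SHH MB. The call of Mal was lost when any 1 SHH MB was left out (adjusted p up to 0.114), and its change was 2.79 without tumor 1. Against P7 cerebella, Gabra6, Cbln3 and Grin2c lost their calls when any 1 P7 cerebellum was left out (adjusted p up to 0.157, 0.133 and 0.132). Against SHH MB, Gabra6 passed in every such fit, Grin2c lost its call when any 1 SHH MB was left out (up to 0.135) and Cbln3 without SHH MB 3 (0.0545). Choroid plexus also contains fenestrated vessels, and the part of its low level in the endothelial values was not tested.

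The genes with the profile most like the mean of the members over the 10 libraries were Gm26744, Gm52710, Tro, Pfkfb2, Golga2, Epb41l4b, Ppp6r2, Iffo1, Etfrf1 and Cdyl2. Their root mean square difference from that mean in centered log2 CPM ranged from 0.0934 to 0.137, compared to a median of 0.858 over all genes tested. None of these genes belongs to the endothelial lists. The members themselves lay between 0.227 (Flt1) and 0.792 (Slco1a4) from their own mean, so that the mean profile describes Flt1, Pecam1 and Vwf better than Slco1a4, Ly6c1 or Cldn5.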

How the data were processed

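Bulk RNA sequencing covered 3 P7 cerebella, 3 SHH MB and 4 MYC/SMARCA4 tumors. The authors isolated RNA from FFPE tissue, depleted ribosomal RNA, used CORALL libraries and 75-base single-end reads, trimmed with Trimmomatic 0.38.1, aligned to GRCm39 with STAR 2.7.8a and deposited raw counts per gene from featureCounts 2.0.1. Strand use and annotation of the counting are not given in the sources used here. The authors also deposited VST values on a log2 scale (DESeq2), used here only as an alternative with limma 3.58.1.

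Counts were tested with edgeR 4.0.16 in R 4.3.3 (quasi-likelihood, TMM, filterByExpr, a mean per group, all 10 libraries), with Benjamini-Hochberg adjustment over 29952 genes. Log2 CPM used a prior count of 2. DESeq2 1.42.0 was an alternative. For single values, exact permutation tests over libraries were two-sided. On simulated counts the fit was tested for recovery of known changes. The 10 members and 17 other lists were chosen with earlier results of these data known. Named are all members, per list and comparison up to 4 genes with the lowest p among those that passed, near copies of members, and the 10 most similar profiles. Counting error limits low genes, and reads are not independent molecules.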

Additional observations from a re-analysis of the deposited data

Results flagged for a closer look

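Pecam1 in MYC/SMARCA4 tumors was the only level of a member whose gap between 1 tumor and the others was large relative to the whole range by Dixon's ratio. The gap between tumor 1 (45.4 CPM) and the next highest tumor (18.0 CPM) took 0.908 of the whole range of log2 CPM, above Dixon's 95% critical value for 4 samples. The other 3 tumors lay close together for Pecam1 (from 16.4 to 18.0 CPM). As a ratio of CPM, tumor 1 stood farther above the next tumor for Ly6c1 (22.3 and 4.39), Cldn5 (45.4 and 10.6) and Slco1a4 (62.2 and 20.5), whose other tumors were more spread. By chance about 1 in 20 such groups exceeds this value, and 10 members were looked at. The share of all genes that exceed it was not computed, so that this gap is a description only. Groups of 3 libraries were not tested in this way.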

How the results depend on the processing

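Of the results of single members under alternatives, 578 kept direction and side of the threshold, 29 passed newly, 8 lost their call (all Kdr against SHH MB) and 15 reversed. Among the other named genes, 808 were kept and 334 lost their call. The number of members past the test against P7 cerebella was 0 and became 2 with DESeq2 (Slco1a4 and Ly6c1), 2 without TMM factors (Kdr and Tek) and 2 among genes with at least 10 counts in every library (Kdr and Tek), with a range of 0 to 5 when single libraries were left out (5 without tumor 3, where 34.6% of all genes passed). Against SHH MB it was 1 and became 3 with DESeq2, 3 without TMM factors, 2 with no filter, 2 with at least 10 counts, 0 with limma on VST values, 0 in a fit of both groups alone, 0 with the replicate block and 0 at a log2 fold change of 2.5 and adjusted p of 0.01. It was 2 with library sizes from the 20 pan-endothelial genes, added after the data were seen, and ranged from 0 to 4 when single libraries were left out. Between SHH MB and P7 cerebella it was 0, and 1 in a fit of both groups alone (Cldn5), where 6883 of 29018 genes passed. Reversed log2 fold changes were all close to 0: Pecam1 against P7 cerebella was -0.30 without TMM factors, -0.13 with at least 10 counts and from -0.31 to 0.38 with single libraries left out. Against SHH MB, Flt1 was -0.026 without TMM factors, and leaving out libraries gave -1.27 to 0.082 for Cldn5 and -0.60 to 0.025 for Pecam1. Between SHH MB and P7 cerebella, library sizes from the pan-endothelial genes gave 0.0062 for Tek and 0.032 for Abcb1a, and leaving out libraries gave -0.19 to 0.070 for Tek and -0.12 to 0.052 for Abcb1a. The causes were not tested.

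Deviations of same-numbered libraries from their group means had correlations from -0.27 to 0.19, 4 of 9 over 0.1. Libraries with different numbers were not compared in this way, so that these values cannot decide whether the numbers pair libraries. With the replicate block, 0, 0 and 0 members passed in the 3 comparisons, and 370, 631 and 19 of all genes in either direction, compared to 1194 higher and 679 lower, 727 and 676, and 53 and 14 without it. Counts of all genes also moved with DESeq2 (4414, 3062 and 457), in fits of both groups alone (229, 388 and 6883) and, with limma, to 1120 and 875 against P7 cerebella and SHH MB. Among 15814 genes with at least 10 counts in every library, 1853, 1713 and 133 passed in the 3 comparisons. With no filter on low counts, 1435 of 47925 genes passed against SHH MB. Fits without tumor 3 called 9932 and 6729 genes in the first and second comparison. Depth limited Ly6c1 most, with 10 to 20 reads in each library outside the tumors.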
